A study of Mus musculus with 88 samples.

Results

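The collagen genes were taken as all genes of the deposited table whose symbol is Col, a number, the letter a and a number, which gave 44 of 24453 genes. Each gene encodes 1 collagen chain. By class they were 11 fibrillar chains, 9 fibril-associated (FACIT) chains, 6 chains of type IV, 6 chains of type VI, 4 network and anchoring chains, 2 multiplexins, 4 transmembrane chains and 2 others. Their RNA was measured in bulk, by sequencing of polyadenylated RNA, in 88 libraries from 10 male C57BL/6NTac mice, of which 5 were Cdh15 knockouts (KO) and 5 wild type (WT). The 9 tissues were heart, kidney, liver, lung, spleen and the limb muscles EDL (extensor digitorum longus), gastrocnemius, soleus and tibialis. All mice of both genotypes had been fasted for 18 h. The KO mice were 65, 71, 72, 82 and 85 days old and the WT mice 65, 71, 72, 82 and 83 days old, so a mouse is named here by genotype and age. Each of the 18 groups of tissue and genotype held 5 mice, except WT kidney (without the 82-day mouse) and WT spleen (without the 72-day mouse), which held 4. The labels name Cdh15 as the target gene and do not describe the allele.

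Collagens are the main structural proteins of the extracellular matrix. Chains of the fibrillar class assemble as trimers into the fibres of tendon, muscle connective tissue and vessel walls, type IV chains form the sheet of every basement membrane, and type VI chains form beaded filaments between the sheet and the fibres. FACIT collagens decorate fibrils, multiplexins are carried by basement membranes, and transmembrane collagens are shed from the cell surface. Fibroblasts, tendon cells, endothelial cells and some epithelia are the usual sources of their RNA.

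For the genes that the levels turn on, 4 stretches of upstream sequence are shown. Capitals mark 3 motifs where they occur on either strand. The first is the TATA box with the letters TATAAA, the second the CCAAT box, searched by the letters of its name, and the third the GC box with the letters GGGCGG. No match overlapped another in these stretches. They are given 5′ to 3′ on the strand of the gene named, or on the plus strand for the gap between Col4a4 and Col4a3, and come from the RefSeq promoter table of GRCm38.p6, the same build as mm10. The intervals are chr1:82586850-82586920 (plus strand) for the gap between Col4a4 and Col4a3, chr1:45311388-45311537 (plus strand) for Col3a1, chr6:4505370-4505492 (plus strand) for Col1a2 and chr10:77166549-77166698 (minus strand) for Col18a1. They hold no annotated exon, and Col4a4 is transcribed away to the left of the first and Col4a3 to its right. The Col1a2 stretch ends at 4505492, before position 4505697, where the interval used for its counts begins. The Col18a1 stretch lies beyond the outer end of its interval, at 77166530. Gene-level counts do not show which start of a gene was used in a tissue.
Col4a4 to Col4a3: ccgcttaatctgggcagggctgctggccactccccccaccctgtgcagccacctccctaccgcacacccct
Col3a1 upstream: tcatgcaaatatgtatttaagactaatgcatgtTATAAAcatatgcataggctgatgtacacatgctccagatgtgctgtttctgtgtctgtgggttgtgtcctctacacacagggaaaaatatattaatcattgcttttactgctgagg
Col1a2 upstream: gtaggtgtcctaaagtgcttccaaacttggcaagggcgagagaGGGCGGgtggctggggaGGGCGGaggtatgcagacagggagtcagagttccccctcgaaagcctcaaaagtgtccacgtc
Col18a1 upstream: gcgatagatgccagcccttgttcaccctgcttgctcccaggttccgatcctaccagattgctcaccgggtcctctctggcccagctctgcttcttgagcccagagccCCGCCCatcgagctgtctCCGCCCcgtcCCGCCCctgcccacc

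The gap between Col4a4 and Col4a3 is 71 bases and holds none of these motifs, the Col3a1 stretch has a TATA box, and those of Col1a2 and Col18a1 have GC boxes. Of 44 genes, 35 had an entry in the table, with 38 start sites. In the 250 bases before the start, the TATA box was found in 5 of 38 windows (13.2%) against 12.4% of all 32851 windows of that length. The CCAAT box was found in 13 of 38 (34.2%) against 33.8%, and the GC box in 22 of 38 (57.9%) against 32.7%. These matches describe the letters and no binding was measured.

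Libraries held 8.21 to 25.1 M counts (M, mega), with a median of 19.02 M. The marker genes of each tissue went with its label: for muscle fibres, cardiac muscle cells, kidney tubule, hepatocytes, lung epithelium and spleen lymphocytes, every library of the tissue had a higher summed level than every library of the other tissues. Cdh15, which encodes M-cadherin, a cell adhesion protein of muscle precursor cells, had 5.31 to 6.71 RPKM on average in the 4 WT muscles and 0.493 to 1.03 in the 4 KO muscles. RPKM is the number of reads per length of exon, scaled to a common library total, and it allows levels to be compared between genes. Outside the muscles Cdh15 had at most 2 counts in a library. The WT 65-day mouse stood apart in its collagens: the 44 genes together took a larger share of its counts than in any other WT mouse in 8 of 9 tissues, all but spleen. The directions of the genotype and age differences are given with and without it.

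Summed over the 44 genes, collagens took the largest mean share of counts in lung, at 0.436% ± 0.051 (SD, n = 5) in WT mice, and the smallest in spleen, at 0.097% ± 0.007 (SD, n = 4). In between came EDL at 0.255% ± 0.094, tibialis at 0.248% ± 0.117, soleus at 0.206% ± 0.048, heart at 0.169% ± 0.019, gastrocnemius at 0.162% ± 0.030, kidney at 0.159% ± 0.010 and liver at 0.111% ± 0.008. The WT 65-day mouse had 0.445% in tibialis, 0.386% in EDL and 0.288% in soleus. It was the highest WT library in each of these muscles. The means above include it, and the WT medians were 0.220% in tibialis, 0.209% in EDL and 0.197% in soleus. Its summed level of 8 tendon cell markers was 484 RPKM in tibialis against 216 to 387 in the other WT mice, 769.9 in EDL against 419 to 610, and 418 in soleus against 311 to 491. Its sum of 10 fibroblast markers in tibialis was 1465 RPKM against 650 to 1232. The part of these cells in its collagen level was not tested. In bulk RNA, fewer cells of a type and less RNA per cell cannot be told apart.

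**Figure D1:**
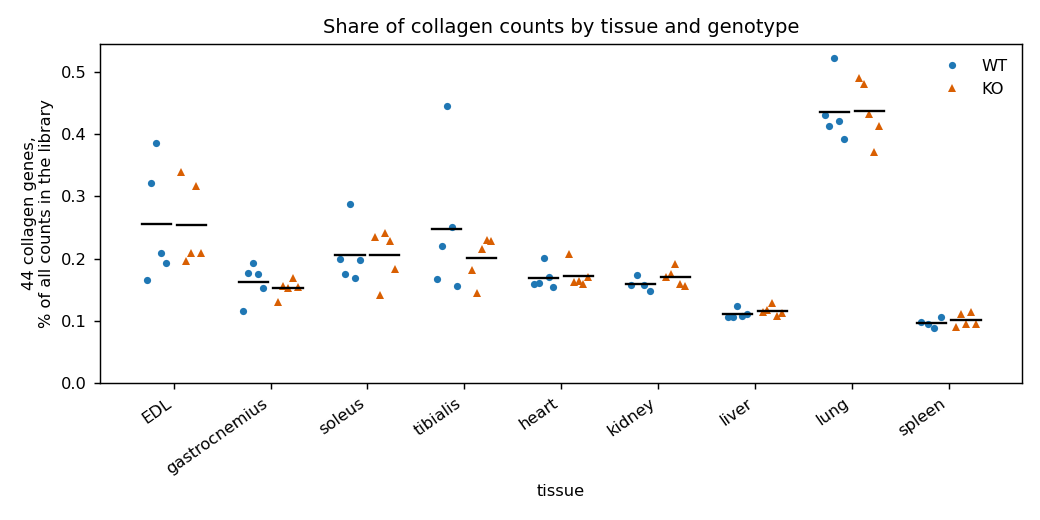
Share of all counts taken by the 44 collagen genes (y axis, percent) in each library, by tissue (x axis) and genotype, with black lines at the group means. Lung lies highest, at 0.436% in WT and 0.437% in KO mice. The highest points in tibialis (0.445%), soleus (0.288%) and EDL (0.386%) are the WT 65-day mouse. In EDL the KO 85-day (0.339%), WT 72-day (0.321%) and KO 71-day (0.317%) mice follow it.

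The make-up of the collagen RNA differed between tissues. Of the counts of the 44 genes in WT mice, which also scale with the length of each transcript, fibrillar chains made 75.1% in EDL and 67.7% to 68.9% in the other 3 muscles, type IV chains 64.0% in kidney, 50.7% in heart and 49.5% in lung, and multiplexins 83.3% in liver. Spleen held a mix, with 40.7% fibrillar, 25.5% type IV, 14.3% FACIT and 10.3% type VI. By RPKM, from 10 genes in liver to 27 in lung had a mean of at least 1 RPKM, and the most abundant pair made up 86.7% of the summed collagen RPKM in liver but 29.4% in lung.

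**Figure D2:**
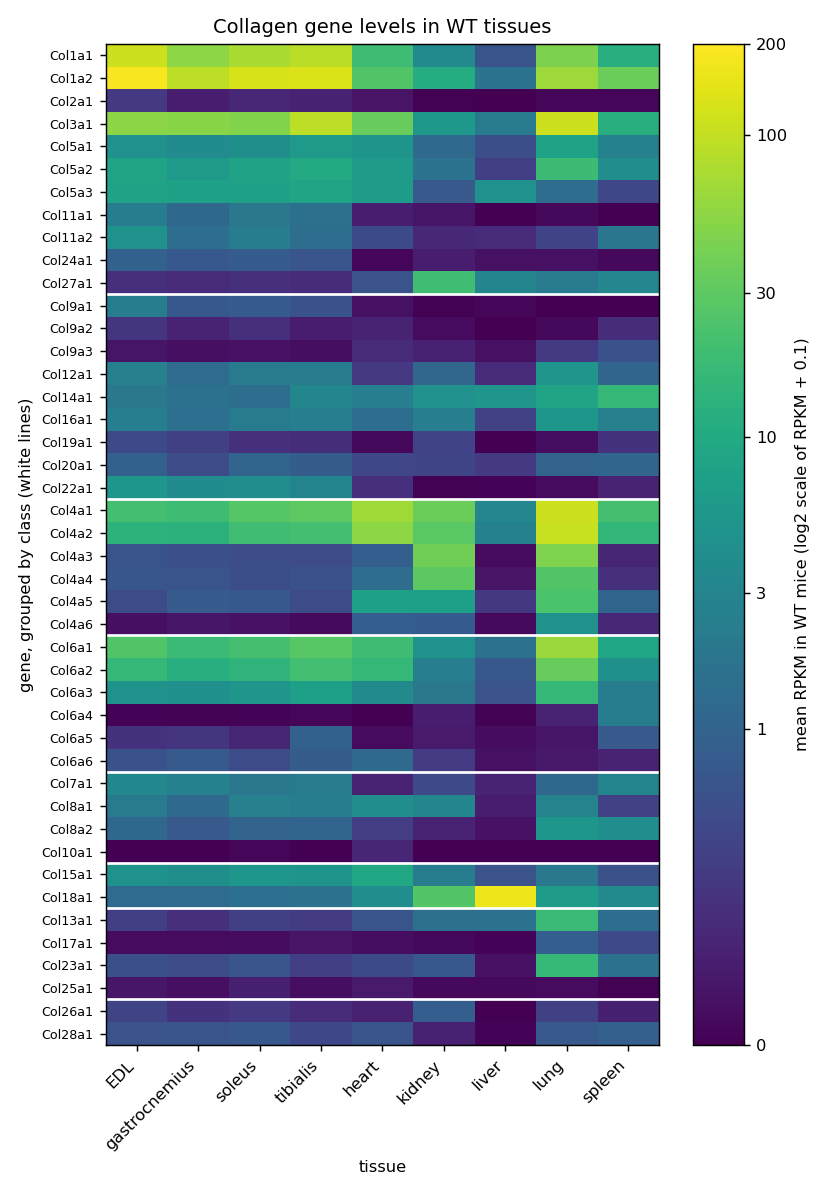
Mean RPKM of each of the 44 genes (rows, grouped by class between the white lines) in the 9 WT tissues (columns), on a log2 scale of RPKM + 0.1. Col1a1, Col1a2 and Col3a1 are bright in the muscles and lung, Col4a3 and Col4a4 in kidney and lung, and Col18a1 in liver, where it averaged 164 RPKM.

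To test which genes set a tissue apart, each organ was compared in the WT mice with the mean of the other 5 organs, the 4 muscles being averaged to 1 organ (edgeR quasi-likelihood test, Benjamini-Hochberg adjustment over 16842 genes, adjusted p under 0.05). Of the 44 genes 43 were tested, all but Col10a1. In skeletal muscle 31 genes were higher and 9 lower, where 40.0% of all tested genes were higher and 44.4% lower. In heart 25 were higher and 11 lower (35.6% and 35.8% of all genes), and in lung 24 and 9 (39.3% and 38.9%). In kidney 13 were higher and 16 lower (39.6% and 32.8%), in spleen 13 and 22 (40.8% and 38.0%), and in liver 5 and 31 (37.0% and 42.4%). With so many genes differing between organs, being called is near the background, which was 84.4% of all genes in skeletal muscle, 79.4% in liver, 78.7% in spleen, 78.2% in lung, 72.4% in kidney and 71.4% in heart. The 6 contrasts share libraries. In the KO mice every gene called in the WT mice had the same sign, and all 40 were also called in skeletal muscle, 33 of 36 in heart, 29 of 29 in kidney, 36 of 36 in liver, 31 of 33 in lung and 35 of 35 in spleen.

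The class counts that follow are to be read beside the shares of all genes just given. Of the 11 fibrillar chains, 10 were higher in the limb muscles and 1, Col27a1, lower. In heart 8 were higher and 2 lower and in lung 5 and 4, while in liver 2 were higher and 6 lower, in kidney 1 and 7, and in spleen 1 and 6. Col3a1, Col5a1 and Col5a2 had their highest mean in lung. Type I collagen, the main fibre of tendon and of muscle sheaths, is a trimer of Col1a1 and Col1a2 chains. Col1a2 (Entrez gene 12843, chromosome 6, 4505697 to 4541543, 52 exons) was the most abundant collagen RNA of EDL, with 112, 136, 154, 267 and 272 RPKM in the 5 WT mice. In gastrocnemius it had 64.4, 87.5, 98.6, 109 and 109 RPKM, in soleus 98.3 to 175 and in tibialis 70.2, 84.4, 117, 150.2 and 242. The liver libraries had 1.44 to 2.31 RPKM, below every library of every other tissue. EDL was the highest by its mean of 188 ± 75.8 RPKM (SD, n = 5), but its libraries overlapped those of soleus and tibialis.

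On the log2 scale the difference of Col1a2 from the other organs was 3.76 (SE 0.12) in skeletal muscle and -3.74 (SE 0.24) in liver. Its partner Col1a1 (chromosome 11, 94936270 to 94951856) had 61.3, 73.3, 82.2, 169 and 177 RPKM in EDL and 0.342 to 1.14 in liver, with log2 differences of 4.18 (SE 0.15) in muscle and -4.20 (SE 0.32) in liver. The ratio of Col1a1 to Col1a2 in RPKM was not the same across tissues: it averaged 0.75 in heart, 0.67 in lung and tibialis, 0.58 in EDL and 0.33 in kidney and spleen. In each library of each group the length-scaled level of Col1a2 was above that of Col1a1.

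Col3a1 (chromosome 1, 45311538 to 45349706), the chain of the thin fibres of lung, vessels and loose connective tissue, was highest on average in lung. Its 5 WT lung libraries had 75.5, 88.1, 119, 124 and 151 RPKM, and its tibialis libraries 44.96, 46.1, 75.4, 82.3 and 214, the last from the WT 65-day mouse. The lung and tibialis libraries overlapped. Relative to the other organs, Col3a1 was higher in skeletal muscle (log2 2.70, SE 0.16), lung (1.99, SE 0.22) and heart (1.45, SE 0.22) and lower in liver (-2.77, SE 0.32), kidney (-1.97, SE 0.32) and spleen (-1.40, SE 0.31).

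The minor fibrillar chains did not share 1 pattern. Type V chains regulate the width of type I fibrils. Col5a1 and Col5a2 followed the main chains, with Col5a2 at 14.7 to 23.9 RPKM in lung, 6.03 to 19.4 in tibialis and 0.250 to 0.359 in liver. Col5a3 departed from them: it had 6.27 to 12.0 RPKM in the muscles and 3.57 to 6.41 in liver, where it was 2.05 (SE 0.13) higher on the log2 scale, against 0.582 to 0.910 in kidney. Col5a3 was thus the fibrillar chain of highest mean level in liver. Col27a1, a fibrillar chain known from cartilage, had 16.4, 18.5, 20.9 and 21.9 RPKM in the 4 WT kidneys, above every library of every other tissue. It was 4.0 (SE 0.09) higher in kidney and 1.61 (SE 0.10) higher in liver, and its difference in skeletal muscle was -3.35 (SE 0.09).

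Col11a1 and Col11a2, chains of the type XI collagen of cartilage, were both higher in skeletal muscle. Col11a1 had 1.56 to 3.82 RPKM in EDL, 0.770 to 2.97 in the other 3 muscles and at most 0.185 in the other organs (adjusted p = 4.68e-24 for skeletal muscle, edgeR). The WT liver and spleen libraries had no count of it, so no fold is given. Col11a2 was not limited to muscle: it had 3.11 to 6.53 RPKM in EDL and 0.999 to 2.87 in the other muscles, but 1.24 to 2.22 in spleen, where it was also higher than in the mean of the other organs (log2 1.49, SE 0.15). Col24a1 stayed at or below 1.39 RPKM, its highest library being of EDL. Col2a1, the main cartilage chain, reached 0.612 and 0.357 RPKM in 2 EDL libraries and was at or below 0.203 in every other WT library. The summed cartilage cell markers were 44.5 to 99.8 RPKM in WT EDL, 20.4 to 70.3 in the other WT muscles and 26.1 to 33.9 in WT lung, with Acan and Matn1 at 3 counts or fewer in every library of the WT muscles. Their part in the levels of Col11a1 and Col11a2 was not tested.

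Among the FACIT chains, 7 of 9 were higher and 2 lower in skeletal muscle, while 5 were higher and 1 lower in spleen. Col22a1, a chain of the junction between muscle and tendon, was nearly limited to the limb muscles: it had 4.92, 4.96, 5.09, 5.26 and 6.36 RPKM in EDL, 3.37 to 4.29 in gastrocnemius, 3.56 to 4.45 in soleus and 2.50 to 3.64 in tibialis. In heart it had 0.157 to 0.245 RPKM and in the 4 WT kidneys at most 0.0077, which is 1 count (adjusted p = 5.73e-45 for skeletal muscle, edgeR). Every EDL library lay above every library of the other tissues. Col9a1, a chain that coats cartilage fibrils, had 1.305, 1.59, 2.09, 3.37 and 3.46 RPKM in EDL, 0.322 to 1.68 in the other muscles and no count in the WT lung and spleen libraries. Its partners in type IX collagen, Col9a2 and Col9a3, stayed at or below 0.337 RPKM in the WT muscles.

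Col14a1, which binds the surface of type I fibrils, was a spleen gene: the 4 WT spleens had 13.6, 15.3, 16.1 and 18.2 RPKM, against 6.25 to 10.1 in lung, 4.61 to 5.69 in liver and 1.13 to 2.10 in soleus. No spleen library overlapped another tissue, and the log2 difference was 1.18 (SE 0.19). Col14a1 was also 1 of the 5 genes that were higher in liver (0.83, SE 0.18). Col12a1 and Col16a1 were highest in lung, with 4.67 to 5.66 and 4.59 to 5.92 RPKM, above every library of other tissues. Col12a1 was low in heart, with 0.201 to 0.316 RPKM against 1.02 to 3.9997 in the limb muscles.

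Type IV collagen was split by organ. All 6 chains were higher in kidney and in lung, 5 were higher in heart with none lower, and all 6 were lower in liver and in spleen. In skeletal muscle Col4a1 and Col4a2 were higher and the other 4 lower. The 6 genes lie as 3 head-to-head pairs, with Col4a1 (chromosome 8, 11198423 to 11312826, minus strand) 2 bases from Col4a2 (11312829 to 11449287, plus strand), Col4a4 71 bases from Col4a3, and Col4a6 (chromosome X, 141165403 to 141474076) 1342 bases from Col4a5. Reads of overlapping or adjoining exons can be told apart only if the counting used the strand, and the labels do not say whether it did.

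Col4a1 and Col4a2, which make the basement membrane network of all tissues, were most abundant in lung and heart. Col4a1 had 88.1, 89.8, 114, 129 and 134 RPKM in lung, 63.8, 64.5, 65.5, 67.5 and 77.6 in heart, 35.1 to 38.8 in kidney and 3.02 to 3.51 in liver. The lung, heart and kidney ranges did not overlap. Col4a2 had 81.5 to 126 RPKM in lung and 51.5 to 57.5 in heart. Endothelial cell markers summed to 902 to 1132 RPKM in WT lung, 257 to 292 in heart, 163 to 176 in kidney and 32.4 to 40.0 in liver. Their part in these levels was not tested.

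Col4a3, Col4a4 and Col4a5 together form the mature network of the kidney glomerulus and of lung alveoli. Col4a3 (chromosome 1, 82586921 to 82722059, 52 exons, plus strand) had 33.9, 35.8, 35.9 and 45.9 RPKM in kidney and 42.7, 44.1, 44.8, 46.2 and 51.6 in lung. The next tissue was heart with 0.751 to 1.08 RPKM, and liver libraries had 0 to 0.0424. Col4a4 (chromosome 1, 82450723 to 82586849, minus strand) had 26.6, 28.3, 29.0 and 32.96 RPKM in kidney, 23.1, 25.1, 25.5, 26.8 and 27.2 in lung and 1.25 to 1.75 in heart. Kidney and lung libraries overlapped for both genes. In the KO mice Col4a3 ranged from 33.8 to 52.7 RPKM in kidney and from 43.4 to 48.3 in lung.

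The log2 differences were 5.94 (SE 0.10) for Col4a3 and 5.27 (SE 0.09) for Col4a4 in kidney, 5.34 (SE 0.10) and 4.10 (SE 0.09) in lung, -5.94 (SE 0.26) and -5.01 (SE 0.20) in liver, and -4.71 (SE 0.28) and -4.17 (SE 0.19) in spleen. Each contrast takes the other organs as its reference, so the high level in lung lowers the kidney value and the reverse. Although the genes are read away from the 71 bases printed above, their ratio was not fixed: Col4a3 over Col4a4 in RPKM was 1.29 ± 0.07 (SD, n = 4) in kidney, 1.798 ± 0.07 (SD, n = 5) in lung and 0.61 ± 0.02 (SD, n = 5) in heart. Col4a5 had 20.7 to 26.6 RPKM in lung, 6.61 to 8.90 in heart and 6.36 to 7.91 in kidney. Col4a6, which forms another network with Col4a5, reached 4.28 to 5.73 in lung and at most 0.0964 in the muscles.

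**Figure D3:**
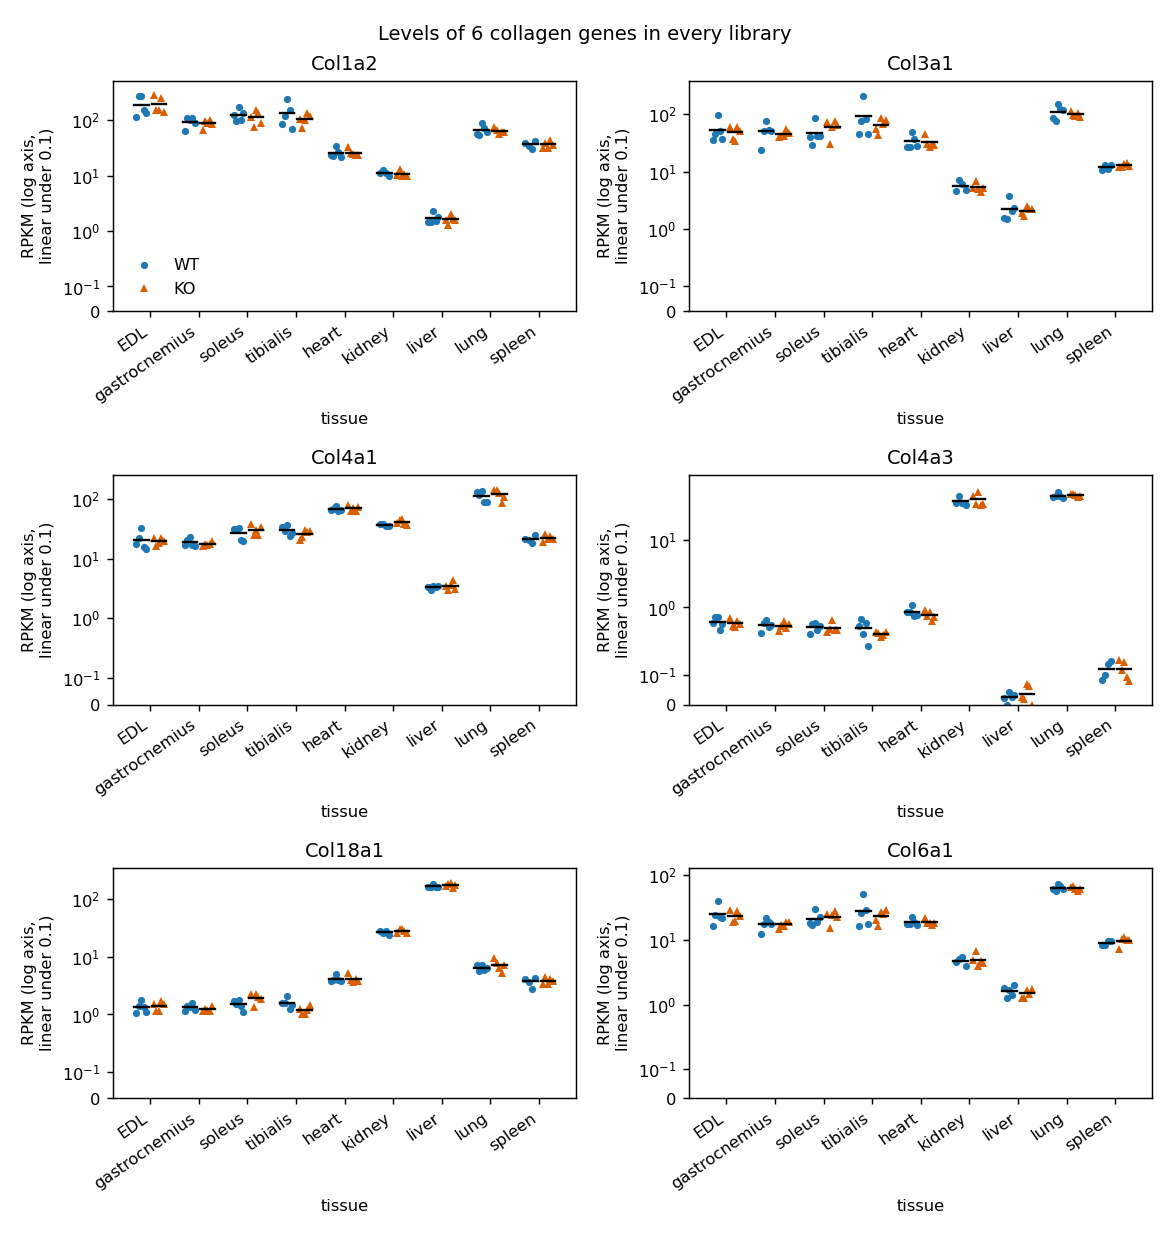
RPKM (y axis, log scale that is linear under 0.1) of 6 collagen genes in every library, by tissue (x axis), with circles for WT, triangles for KO and black lines at the group means. Col4a3 holds at 33.9 to 51.6 RPKM in WT kidney and lung and at or under 1.08 elsewhere, and Col18a1 is highest in liver (158 to 181 in WT).

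Type VI collagen links basement membranes with fibrils. Of its 6 chains, 5 were higher in skeletal muscle with none lower, 4 were higher in heart and in lung with 1 lower in each, and 4 were lower in liver and in spleen. Col6a1 and Col6a2, neighbours on chromosome 10, and Col6a3 had the same sign in all 6 contrasts, each called, and were highest in lung, where Col6a1 had 56.1 to 71.9 RPKM, Col6a2 29.9 to 39.2 and Col6a3 13.4 to 19.9. Col6a1 was 2.01 (SE 0.14) higher in lung and 2.02 (SE 0.11) higher in skeletal muscle, where its WT libraries ranged from 12.2 to 51.6 RPKM. Col6a4, Col6a5 and Col6a6, which lie in tandem on chromosome 9 and can replace Col6a3 in the trimer, went separate ways. Col6a4 had 1.75, 2.36, 2.41 and 2.69 RPKM in the WT spleens and at most 0.149 in any other WT library, with no count in the WT hearts (adjusted p = 8.31e-27 for spleen, edgeR). The KO spleens had 2.21 to 2.86 RPKM. Col6a6 was instead a heart gene, with 1.11 to 1.504 RPKM there and a log2 difference of 3.51 (SE 0.23), although tibialis, at 0.258 to 1.56 RPKM, overlapped it. It was lower in lung (-2.99, SE 0.41). Col6a5 had 0.661 to 0.836 RPKM in spleen, and 3.65 in the tibialis of the WT 65-day mouse.

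The network and anchoring chains were of low abundance. Col8a1, a chain of vessel walls, had 3.74 to 4.44 RPKM in heart (log2 2.55, SE 0.14) and its partner Col8a2 only 0.200 to 0.414, while in spleen Col8a2 had 1.85 to 5.42 RPKM (2.60, SE 0.21) and Col8a1 0.238 to 0.415. The ratio of Col8a1 to Col8a2 in RPKM thus averaged 31.4 in kidney and 0.10 in spleen. Col7a1, the anchoring fibril chain of skin, had 2.86 to 3.88 RPKM in EDL and 2.26 to 3.88 in spleen. It was 1.98 (SE 0.10) higher in spleen and lower in heart (-2.55, SE 0.16). Col10a1, the chain of growth cartilage, had no count in most libraries. Its counts above 4 came from 3 heart libraries, with 39 in the KO 85-day, 34 in the WT 65-day and 14 in the KO 82-day mouse.

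Of the 2 multiplexins, 1 dominated liver. Col18a1, whose protein is cleaved to release endostatin, lies on chromosome 10 (77052179 to 77166530, minus strand, 42 exons in the transcript used). The 5 WT livers had 158, 158, 161, 162 and 181 RPKM and the 5 KO livers 153, 168, 171, 177 and 189. It alone made 84.0% of the collagen RPKM of WT liver. Kidney followed with 24.1, 25.7, 27.5 and 28.0 RPKM, lung had 5.75 to 7.31, heart 3.78 to 4.98, spleen 2.77 to 4.32 and the muscles 1.047 to 2.10. Every liver library lay above every kidney library, and every kidney library above those of the remaining tissues. The log2 difference was 5.84 (SE 0.07) in liver and 1.70 (SE 0.08) in kidney. RefSeq gives the gene 2 starts, which gene-level counts do not tell apart. Col15a1, its relative of muscle and capillary basement membranes, had another order, with 7.34 to 11.5 RPKM in heart (3.01, SE 0.15), 2.91 to 8.56 in the muscles and low levels in liver (0.432 to 0.800, log2 -1.38, SE 0.23) and in spleen (0.367 to 0.724, -3.06, SE 0.28).

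Outside Col18a1 liver was poor in the common chains: Col1a1, Col1a2, Col3a1, Col4a1 and Col6a1 each had their lowest WT mean there. The 5 genes that were higher in liver were Col18a1, Col5a3, Col27a1, Col14a1 and Col13a1 (0.92, SE 0.15). Col8a1 was among the 31 lower genes (-3.85, SE 0.28). The 8 hepatic stellate cell markers summed to 73.8 to 83.3 RPKM in WT liver. Of these, Lrat had 2.04 to 2.87 and Reln 2.39 to 3.11, so the other markers made most of the sum. The part of these cells in the collagen levels of liver was not tested. Alb, the albumin gene of hepatocytes, had at least 30843 RPKM.

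Of the 4 transmembrane chains, 3 were higher in lung and none lower, where 39.3% of all tested genes were higher and 38.9% lower. Col13a1 had 14.0 to 21.9 RPKM in lung (3.24, SE 0.11) and at most 2.21 elsewhere in WT mice. Col23a1 had 13.5 to 18.7 RPKM in lung (4.36, SE 0.12) and at most 1.97 elsewhere. Col17a1, a chain that anchors epithelia to the basement membrane, had 0.554 to 1.06 RPKM in lung, 0.359 to 0.476 in spleen and at most 0.110 in the other tissues. Col25a1 stayed at or below 0.137 RPKM in every WT library. Of the remaining 2 genes, Col26a1 was highest in kidney with 0.688 to 0.969 RPKM, and Col28a1, a chain of peripheral nerve, had 0.691 to 1.16 in spleen and at most 0.0123 in liver.

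Genes that make, cross-link and bind collagen were taken as 5 lists. Of all tested genes, 40.0% were higher and 44.4% lower in skeletal muscle, 35.6% and 35.8% in heart, and 39.3% and 38.9% in lung. The shares were 39.6% and 32.8% in kidney, 37.0% and 42.4% in liver and 40.8% and 38.0% in spleen. Of 16 proteoglycans and other fibril-associated proteins, 15 were higher in skeletal muscle and 1 lower, 12 and 1 in heart, 7 and 3 in lung, 1 and 11 in kidney, 2 and 11 in liver and 3 and 10 in spleen. Fmod, a proteoglycan of tendon fibrils, had 160 to 273 RPKM in EDL against 2.15 to 2.51 in lung (log2 6.24 in skeletal muscle), and Dcn, which coats type I fibrils, had 551 to 712 in EDL (3.20). Of 12 tested genes for cleavage and cross-linking, 10 were higher and 1 lower in skeletal muscle, 9 and none in lung, and 2 and 10 in liver. Lox, the enzyme that starts cross-linking, had 25.6 to 32.5 RPKM in lung, 18.4 to 32.2 in EDL and 0.0440 to 0.128 in liver.

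Of 24 genes for chain modification and folding, 14 were higher and 6 lower in skeletal muscle, 14 and 5 in heart, 16 and 7 in lung, 11 and 8 in kidney, 10 and 14 in liver and 5 and 15 in spleen. In skeletal muscle, heart and kidney 84.4%, 71.4% and 72.4% of all genes were called, and calls in this list were near that background. Serpinh1, the collagen chaperone Hsp47, had 87.2 to 140.1 RPKM in lung, 11.0 to 21.9 in EDL and 1.70 to 2.14 in liver. EDL, with more Col1a1 and Col1a2 RNA than lung on average, thus had less Serpinh1. Of 16 basement membrane partners, 13 were higher in heart and 2 lower, 13 and 1 in lung, 9 and 5 in kidney, 9 and 7 in skeletal muscle, 2 and 13 in liver, and none and 14 in spleen. Of 12 collagen receptors, 10 were higher and 2 lower in lung and none and 9 in liver.

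The 4 limb muscles were then compared with one another in the same WT fit, each with the mean of the other 3. EDL had 11 genes higher and 1 lower, where 5.4% of all tested genes were higher and 4.77% lower. Tibialis had 7 higher and 7 lower (7.62% and 7.37%), gastrocnemius 4 and 8 (13.2% and 10.2%) and soleus 2 and 3 (10.5% and 7.55%). The higher genes of EDL were Col9a1 (log2 1.79, SE 0.24), Col11a2 (1.45, SE 0.12), Col2a1, Col19a1, Col26a1, Col1a2, Col11a1, Col1a1, Col7a1, Col22a1 and Col12a1, and the lower one was Col4a5 (-0.44). Col11a2 had 3.11, 3.75, 4.96, 5.19 and 6.53 RPKM in EDL and 0.999 to 2.87 in the other muscles, with no overlap. Tendon cell markers summed to 419 to 769.9 RPKM in WT EDL, 311 to 491 in soleus, 216 to 484 in tibialis and 220.2 to 280 in gastrocnemius. Their part in these differences was not tested.

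The difference of Col1a2 in EDL was 0.69 (SE 0.18, adjusted p = 0.00916), and without the WT 72-day mouse, 1 of the 2 with high Col1a2 there, the adjusted p was 0.136. Without that mouse 5 genes were called in EDL in place of 12. In gastrocnemius Col20a1 (-0.87, SE 0.13) and Col8a1 (-0.80, SE 0.17) were lower, and Col7a1 was higher (0.29, adjusted p = 0.0247), a call that was lost without the WT 82-day, 72-day or 65-day mouse. The count of calls in gastrocnemius was 5 without the WT 72-day mouse and 7 without the 82-day, the 83-day or the 65-day mouse, in place of 12.

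Soleus had lower Col7a1, with 1.41 to 2.26 RPKM against 2.49 to 3.88 in EDL and gastrocnemius (log2 -0.61, adjusted p = 1.57e-05), and higher Col20a1 (0.44, adjusted p = 0.00588, and 0.0643 without the WT 65-day mouse). Its lower Col14a1 (-0.67, adjusted p = 0.0339) was not called without the WT 72-day or 71-day mouse, nor in the KO mice (adjusted p = 0.0598). With the mouse as a block 8 genes were called in soleus in place of 5 (19.8% of all genes in place of 18.1%), the added ones being Col6a6, Col4a4 and Col3a1, all lower (adjusted p = 0.0254, 0.0265 and 0.0306). Without the WT 82-day or the WT 72-day mouse 3 were called.

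In tibialis Col14a1 (0.90, SE 0.21), Col3a1 (0.80, SE 0.25) and Col6a3 (0.56, SE 0.18) were higher and Col9a1 (-0.90, SE 0.30) and Col11a2 (-0.83, SE 0.14) lower. The call of Col11a2 (adjusted p = 6.47e-05) was kept in each set of 4 mice. That of Col14a1 had an adjusted p of 0.0510 without the WT 71-day mouse. The call of Col3a1 was lost without the WT 83-day, 72-day or 71-day mouse, that of Col6a3 without the 82-day, 83-day, 72-day or 71-day mouse, and that of Col9a1 without any 1 of the 5 mice and in the KO mice. The count of calls was 8 without the WT 82-day, 9 without the 83-day and 7 without the 72-day or the 71-day mouse, in place of 14.

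No collagen gene passed the threshold between the Cdh15 KO and WT mice in any tissue. KO and WT mice were compared within each tissue (edgeR quasi-likelihood test, adjusted over all tested genes), with 22 collagen genes tested in liver, 33 in heart, 34 in kidney and lung, 35 in spleen and tibialis, 36 in gastrocnemius and 38 in soleus and EDL. The count of calls was 0 of all of these, and 0 with the DESeq2 Wald test. Of all genes, 0.0% were called in heart, kidney, liver, lung and spleen, 0.00771% in soleus, 0.0081% in tibialis, 0.00777% in EDL and 0.00792% in gastrocnemius. At an unadjusted p under 0.05 there were 4 collagen genes in tibialis, 3 in kidney, 1 each in heart, liver, lung and soleus and 0 in spleen, EDL and gastrocnemius. The share of all genes at that level was 1.77% in tibialis, 3.35% in kidney, 3.13% in heart, 1.57% in liver, 2.06% in lung, 17.2% in soleus, 0.846% in spleen, 4.58% in EDL and 1.95% in gastrocnemius. None of the genes of the 5 lists of collagen partners was called either.

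The genes of smallest p in the muscles were as follows. In soleus Col8a1 had 1.73, 2.56, 2.56, 2.62 and 3.62 RPKM in WT and 2.74, 3.70, 4.06, 4.91 and 5.94 in KO mice, a difference of 0.64 on the log2 scale (SE 0.19, adjusted p = 0.238, edgeR). The groups overlapped in 1 WT library that lay above the lowest KO library. Without the KO 72-day soleus, which had 15.1 RPKM of the fast myosin Myh4 against 4533 to 6357 in the other KO soleus libraries, the difference was 0.51. The Myh4 level of the WT soleus libraries is not given here. With all 5 KO libraries, Col7a1 in soleus had 1.41 to 2.26 RPKM in WT and 0.416 to 1.70 in KO mice (-0.71, SE 0.32, adjusted p = 0.292, edgeR).

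In tibialis Col20a1, a FACIT chain, had 0.744, 0.753, 0.859, 0.940 and 0.958 RPKM in WT and 0.361, 0.423, 0.604, 0.604 and 0.723 in KO mice. The groups did not overlap, and the difference was -0.63 (SE 0.18, adjusted p = 0.9999, edgeR). Col18a1 in tibialis had 1.25 to 2.10 RPKM in WT and 1.005 to 1.45 in KO mice (-0.41, SE 0.13). In EDL the 2 genes were Col19a1 (-0.71, SE 0.38) and Col9a1 (-0.74, SE 0.40), and in gastrocnemius Col11a2 (-0.22, SE 0.11) and Col8a2 (-0.36, SE 0.18). For the collagen genes the adjusted p in EDL and gastrocnemius was at least 0.986 (edgeR).

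In the other organs the genes of smallest p were as follows. Col5a2 in liver had 0.250, 0.272, 0.314, 0.347 and 0.359 RPKM in WT and 0.184, 0.210, 0.237, 0.238 and 0.261 in KO mice (-0.48, SE 0.17), with an overlap of 1 KO library and 1 WT library. Col14a1 followed in liver (0.16, SE 0.09). Col8a1 in kidney had 2.87, 3.06, 3.24 and 3.67 RPKM in WT and 3.28, 3.80, 3.85, 4.48 and 4.80 in KO mice (0.29, SE 0.10), which again overlapped. Col6a5 was at or below 0.203 RPKM in both genotypes of kidney (0.89, SE 0.38) and at or below 0.150 in lung (0.75, SE 0.34). Col13a1 was next in lung (-0.18, SE 0.10), Col6a6 (0.67, SE 0.31) and Col6a5 (0.34, SE 0.17) led in spleen, and Col4a4 (-0.24, SE 0.09) and Col8a1 (0.13, SE 0.08) in heart. All adjusted p of collagen genes in these 5 tissues were at least 0.9994 (edgeR).

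**Figure D4:**
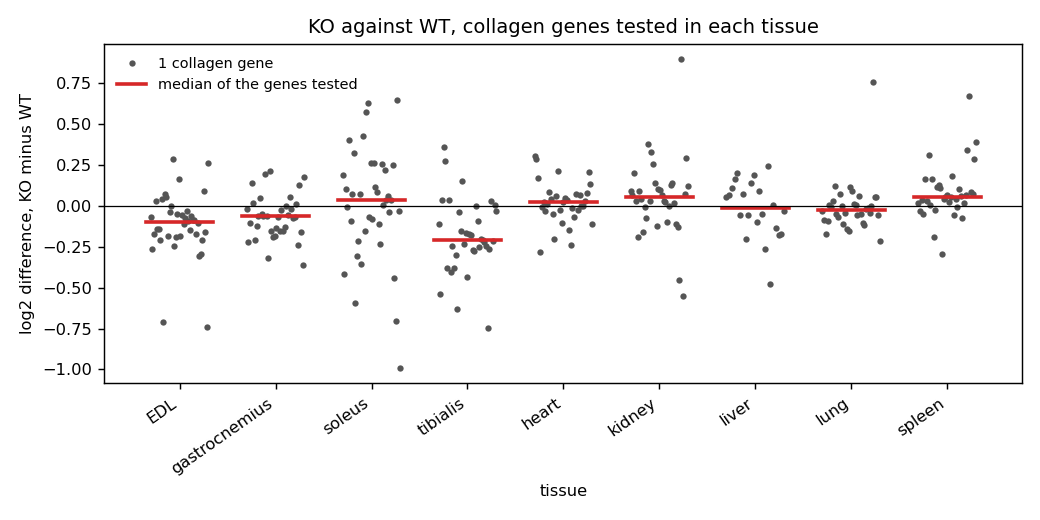
Log2 difference between KO and WT mice (y axis) of each collagen gene tested in a tissue (x axis), 1 point per gene, with a red line at the median of the genes. The medians lie between -0.21 in tibialis and 0.05 in kidney and spleen, and no point passed the adjusted threshold.

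In EDL, lung and heart the prevailing direction of these small differences changed when 1 mouse was left out. In EDL 30 of 38 genes were lower in KO mice (median -0.10, against -0.0026 for all genes tested), but without the WT 65-day mouse 32 of 38 were higher (median 0.13). In tibialis 28 of 35 were lower (median -0.21), and without that mouse 19 of 35 (-0.02). In gastrocnemius 27 of 36 were lower, and 20 of 36 without it. In soleus 21 of 38 were higher, and 25 of 38 without it. In liver 11 of 22 were higher, and 15 of 22 without it. In lung the split of 13 higher and 21 lower became 24 and 10, and in heart 18 higher and 15 lower became 26 and 7, or 11 and 22 without the KO 85-day mouse. Kidney, with 23 higher and 11 lower, and spleen, with 27 and 8, kept their direction at 25 and 9 and at 21 and 14. With and without the mouse 0 genes were called.

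Averaged over the 4 muscles with the mouse as a random effect (limma), 0 of 39 collagen genes were called, where 0.0148% of all genes were. The smallest p belonged to Col11a2 (-0.33, SE 0.14, adjusted p = 0.732) and Col9a1 (-0.58, SE 0.33, adjusted p = 0.775). The KO-WT difference was also tested for being unequal across the 9 tissues (edgeR), where 0 of 43 collagen genes and 0.0292% of all genes were called, with Col20a1 (adjusted p = 0.663) and Col7a1 (adjusted p = 0.917) of smallest p. The difference in soleus set against its mean in the other 3 muscles gave 0 of 39, with 0.0% of all genes called. Here Col8a1 was 0.74 (SE 0.26, adjusted p = 0.143) and Col18a1 0.47 (SE 0.17, adjusted p = 0.149). With the mouse as a replicate block both were called, Col8a1 at 0.75 (SE 0.19, adjusted p = 0.0300) and Col18a1 at 0.47 (SE 0.14, adjusted p = 0.0461). That fit called 4.37% of all genes, so 2 of 39 collagen genes is near its background. Col18a1 had 1.11, 1.40, 1.52, 1.72 and 1.802 RPKM in WT soleus and 1.37, 1.84, 1.97, 2.29 and 2.30 in KO soleus.

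The mice spanned 65 to 85 days of age, so the slope of each gene on age was fitted with genotype in the model. No collagen gene passed the adjusted threshold in any of the 9 tissues (edgeR), and 0.0% of all genes did. Tibialis held the most genes at an unadjusted p under 0.05, with 18 of 35, all with lower levels in older mice, against 12.3% of all genes. There 27 of 35 slopes were negative, with a median of -0.30 per 10 days on the log2 scale against 0.0060 over all genes. The 2 genes of smallest p were Col5a2 (-0.57 per 10 days, SE 0.11, adjusted p = 0.117) and Col6a5 (-2.90, SE 0.52, adjusted p = 0.123).

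Col5a2 in tibialis had 19.4 RPKM in the WT 65-day mouse, 9.74 and 9.98 in the 71-day and 72-day mice, and 6.03 and 6.66 in the 82-day and 83-day mice. In KO mice the values were 9.98 at 65 days, 8.78 and 10.9 at 71 and 72 days, 6.22 at 82 and 6.68 at 85 days. In both genotypes the 2 oldest mice thus had the lowest levels, while the 65-day KO mouse did not stand above the 71-day and 72-day ones. Col6a1 had 51.6 RPKM at 65 days, 28.7 and 25.6 at 71 and 72, and 16.4 and 17.3 at 82 and 83 days in WT mice. Its KO values were 27.4, 25.1, 28.8, 16.7 and 20.3 RPKM in order of age. For Col1a1 the WT mice had 169.8, 103, 76.8, 50.3 and 49.0 RPKM in order of age and the KO mice 65.9, 92.6, 75.9, 39.1 and 66.8.

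**Figure D5:**
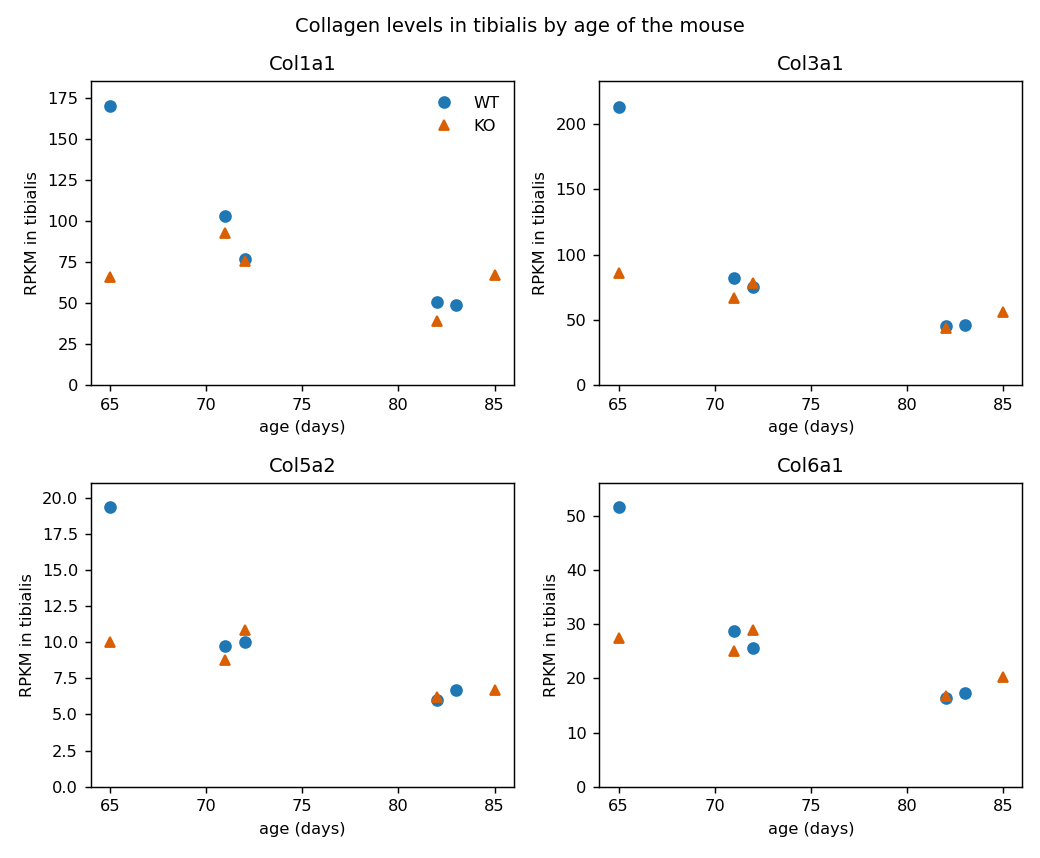
RPKM in tibialis (y axes, from 0) of Col1a1, Col3a1, Col5a2 and Col6a1 against the age of the mouse in days (x axes), 1 point per mouse, with circles for WT and triangles for KO. The WT 65-day mouse is the highest point of each panel (214 RPKM for Col3a1), and the WT mice of 82 and 83 days are at the low end.

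The DESeq2 Wald test called 10 of the age slopes in tibialis, all negative, those of Col3a1, Col5a1, Col5a2, Col6a1, Col6a2, Col6a3, Col6a5, Col8a2, Col14a1 and Col16a1, where 1.86% of all genes with an adjusted p were called. In the edgeR fit 7 of 35 were called without the KO 85-day mouse (0.479% of all genes) and 6 of 35 without the KO 65-day mouse (1.29%). Without the WT 65-day mouse 0 were called, 14 had an unadjusted p under 0.05, and 28 of 35 slopes were negative with a median of -0.17. The share of all genes at that unadjusted p is given only for the fit with the mouse. All 16 fibril-associated genes and all 12 genes for cleavage and cross-linking had negative slopes in tibialis, none of them called, with medians of -0.35 and -0.37.

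In the other muscles most slopes were also negative. The slopes of a tissue come from the same mice, so their signs are not independent. No median slope over all genes is given for these tissues. In EDL 37 of 38 slopes were negative (median -0.19), and without the WT 65-day mouse 20 of 38 (-0.02). In soleus 32 of 38 were negative, and without it 26. In gastrocnemius 30 of 36 were negative and 10 had an unadjusted p under 0.05 (5.58% of all genes), which became 31 and 4 without it, with a median of -0.14 with the mouse and -0.10 without. Heart had 18 of 33 negative slopes with the mouse and 8 without, and 0 of its slopes had an unadjusted p under 0.05 (2.82% of all genes), or 4 without it. Lung had 19 of 34 negative slopes with the mouse and 11 without. Liver had 18 of 22 negative slopes (median -0.07), and 5 slopes, all negative, had an unadjusted p under 0.05 (3.16% of all genes). Without the mouse 15 of 22 liver slopes were negative (median -0.09) and 1 had an unadjusted p under 0.05. Kidney had 21 of 34 negative slopes with the mouse and 18 without, and spleen 20 of 35 and 21. The shares of all genes in these tissues are for the fits with the mouse, so counts without it have no background here. Since 1 mouse per genotype was 65 days old, age and that animal's other traits cannot be told apart.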

How the data were processed

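Bulk RNA of 9 tissues from 10 mice was measured in 88 libraries. Per the labels' protocols, polyadenylated RNA was extracted with MagMax and made into libraries with a KAPA stranded kit. The build is mm10, per the submitters' processing notes; the sources used here name no aligner or counter and no strand setting. The authors deposited expected counts per gene, of which 85.54% were whole numbers, and these were rounded for the fits. Because 12 of the 44 collagen genes had a fractional count in some library, reads shared with other genes may have been split. The authors also deposited RPKM values, which were used for levels and never in a test. Their ratio to values recomputed from counts, exon length and library total was 0.9997 to 1.000 by library. Single genes could depart from it. Mean Col3a1 in heart was 179.3 counts per M in KO and 177.6 in WT mice, but 32.6 and 33.8 RPKM. Levels, ratios and shares in RPKM thus need not follow the counts of each gene. The 22 marker sequences that are no mouse genes, at most 0.0323% of a library, were left out.

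Groups and mice were taken from the labels. Fits used edgeR 4.0.16 in R 4.3.3 (robust quasi-likelihood, TMM, low counts removed by filterByExpr at 10 counts and a total of 15) with Benjamini-Hochberg adjustment over all tested genes and a threshold of 0.05. Each tissue was fitted alone for genotype and for age, per 10 days. WT libraries of all tissues were fitted together for the contrasts between tissues. The mean over muscles used limma 3.58.1. No fold is given for a gene with 3 counts or fewer in every library of an organ compared. The fits were tested on simulated data. Of 172 pairs of replicates none was a copy (smallest chi-square per gene 5.05).

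Libraries of 1 mouse across tissues come from the same animal. Over 164 same-mouse pairs of WT libraries the deviations of 14573 genes correlated at 0.0909 on average, with 63 pairs over 0.1, and over the 30 pairs of muscles at 0.252. The mouse was therefore also used as a replicate block. Other alternatives were DESeq2 1.42.0 (Wald test, or its size factors), no filter on low counts, age as a covariate or matched in pairs, the KO mice in place of the WT mice, and each mouse left out in turn. The collagen genes, their classes and the lists of partners and markers were chosen with earlier results of these data known. Values named with a test were the 2 genes of smallest p in each genotype or age fit without calls, and in the contrasts between tissues up to 3 higher and 2 lower genes of largest difference at 1 RPKM or more. Other named values illustrate a class and were picked after the levels were seen.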

Additional observations from a re-analysis of the deposited data

Results flagged for a closer look

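In groups of 4 or 5 libraries, the highest and lowest values of the collagen share of counts, of the leading collagen genes and of the genes with a genotype test were compared with the gap that Dixon's 95% limit allows. The share and the leading genes were added after the data were seen. Of 108 groups 10 had such a value, and chance gives about 1 in 20. Of these, 8 came from the WT 65-day mouse. Its Col3a1 was 213.6 RPKM in tibialis (the other 4 WT mice 44.96 to 82.3), 96.7 in EDL (36.03 to 50.5) and 86.2 in soleus (29.0 to 41.9). Its Col4a1 was 77.6 RPKM in heart (63.8 to 67.5), its Col4a3 45.9 in kidney (33.9 to 35.9) and its Col18a1 181 in liver (158 to 162). Its collagen share was 0.288% of counts in soleus (0.169% to 0.200%) and 0.124% in liver (0.106% to 0.111%). The other values came from the heart of the KO 85-day mouse, with 46.2 RPKM of Col3a1 (the other 4 KO mice 26.9 to 30.8) and a collagen share of 0.207% (0.159% to 0.170%).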

How the results depend on the processing

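Of 150 counts of called collagen genes under other settings, 145 stayed within 1.5 times the main count, and 243 of 256 with 1 mouse left out; none changed direction. The exceptions were the gastrocnemius contrast (12 genes, 23 in the KO mice), the soleus contrast (5, 8 with the mouse as a replicate block, 18 in the KO mice), the age slope in tibialis (0, 10 by the DESeq2 Wald test) and the KO-WT difference in soleus against the other muscles (0, 2 with the replicate block). The cause was not tested. The block changed no other count by that much. With 1 mouse left out, the contrasts called 5 to 10 genes in EDL, 5 to 9 in gastrocnemius, 3 to 6 in soleus, 7 to 13 in tibialis, 40 in skeletal muscle, 32 to 35 in heart, 28 to 30 in kidney, 36 in liver, 32 to 34 in lung and 33 to 35 in spleen, and the age slope 0 to 7 in tibialis. All genotype fits and the age fits of the other 8 tissues called 0. Of single genes named, 412 of 418 values under other settings and 609 of 632 with 1 mouse left out kept their side of the threshold. Genes with few counts, such as Col6a5, are limited by depth.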
